A study of Mus musculus with 21 samples.

Results

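Interferon-stimulated genes are the genes that cells switch on when they sense an interferon, and 33 of them were followed here in mouse fat. They were taken by symbol from the deposited exon count table, which lists 38087 genes. All 33 were in the table, 32 by their symbol and Ifit3b by its gene identifier, since the table gives it the older symbol I830012O16Rik. All 33 passed the filter on low counts, as did 18334 genes of the table in all. Of the 33, 25 are genes best known as targets of the type I interferons and 8 are genes best known as targets of interferon gamma. The tissue was epididymal white fat, the visceral depot beside the epididymis, from male C57BL/6j mice aged 15 to 16 weeks and fed ad libitum. One arm was conventionally raised, with a gut microbiota, and the other was germ-free. Total RNA depleted of ribosomal RNA was sequenced at zeitgeber times (ZT) 2, 6, 10, 14, 18 and 22 h. The conventional arm has 12 libraries, 2 at each time, and the germ-free arm has 9. Germ-free ZT02, ZT14 and ZT18 have 1 library and the other germ-free times have 2. No label states that the libraries are from separate animals, so the p-values measure the spread between libraries.

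Type I interferons (interferon beta and the alphas) signal through the receptor Ifnar1/Ifnar2 and the kinases Jak1 and Tyk2. The activated complex, which holds Stat2 and Irf9, binds a promoter element called ISRE. Interferon gamma signals through Ifngr1/Ifngr2 to factors that bind an element called GAS, and many of its targets are also reached through Irf1 at ISRE sites. The products block viral replication, sense foreign nucleic acid, attack the membranes around intracellular microbes or attract T cells, and in fat they are known from both adipocytes and resident immune cells. In a bulk tissue, fewer cells of a type and less RNA per cell cannot be told apart.

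The promoters are shown first, since the ISRE is what most of these genes share. The genes were chosen by name as known interferon targets, so a high share with this element is no independent result. RefSeq windows (build GRCm38.p6), from 250 bases before to 50 bases after the gene's start, were matched by symbol for 25 of the 33 genes, 18 type I and 7 gamma-induced. The windows were searched on both strands for the ISRE core, GAAA, then any 2 bases, then GAAA, and for GAS, TTCNNNGAA. The ISRE core was present in 17 of the 25 genes (68.0%), against 3.99% of the 27025 genes with a window. It was found in 11 of 18 type I genes (61.1%) and in 6 of 7 gamma-induced genes (85.7%). GAS was present in 5 of the 25 genes (20%), 3 type I and 2 gamma-induced, against 9.55% of all genes with a window. The 2 motifs overlap each other in Bst2 only among these genes. The 140 bases before the start are shown for Isg15 and Ifit1, as type I genes with several copies of the core, for Oas3 and Irf7, which moved in opposite directions between the arms, and for Gbp2, Igtp and Irgm1, as gamma-induced genes with the core. Capitals mark ISRE cores on either strand and, in Igtp, also the GAS match TTCTAGGAA that begins 45 bases before the start. Each is written 5′ to 3′ on the gene's strand, at chr4:156200819-156200958 (minus strand) for Isg15, chr19:34640749-34640888 (plus strand) for Ifit1, chr5:120777660-120777799 (minus strand) for Oas3, chr7:141266425-141266564 (minus strand) for Irf7, chr3:142620523-142620662 (plus strand) for Gbp2, chr11:58199416-58199555 (plus strand) for Igtp and chr11:48871421-48871560 (minus strand) for Irgm1.
Isg15: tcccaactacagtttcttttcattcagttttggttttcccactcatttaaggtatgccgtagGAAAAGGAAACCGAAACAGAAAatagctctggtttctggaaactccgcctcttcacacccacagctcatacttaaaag
Ifit1: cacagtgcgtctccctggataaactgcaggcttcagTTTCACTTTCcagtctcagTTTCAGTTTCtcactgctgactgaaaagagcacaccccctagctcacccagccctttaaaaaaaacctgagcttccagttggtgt
Oas3: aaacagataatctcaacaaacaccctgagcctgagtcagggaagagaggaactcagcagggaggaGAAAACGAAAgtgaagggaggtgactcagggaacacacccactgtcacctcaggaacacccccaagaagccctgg
Irf7: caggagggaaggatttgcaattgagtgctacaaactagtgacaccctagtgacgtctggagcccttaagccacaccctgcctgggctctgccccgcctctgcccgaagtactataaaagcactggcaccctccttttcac
Gbp2: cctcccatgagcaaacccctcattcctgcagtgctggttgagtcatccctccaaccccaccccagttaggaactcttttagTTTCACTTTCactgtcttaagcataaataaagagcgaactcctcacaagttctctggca
Igtp: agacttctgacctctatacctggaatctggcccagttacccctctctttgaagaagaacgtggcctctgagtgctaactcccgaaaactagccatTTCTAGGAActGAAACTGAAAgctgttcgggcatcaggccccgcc
Irgm1: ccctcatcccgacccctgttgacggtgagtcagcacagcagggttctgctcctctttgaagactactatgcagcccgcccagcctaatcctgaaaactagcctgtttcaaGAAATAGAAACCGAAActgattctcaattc

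In Isg15 the capitals cover 3 overlapping cores, the first of which begins 78 bases before the start, and in Irgm1 they cover 2 overlapping cores. Ifit1 and Gbp2 carry the core on the opposite strand, beginning 104 and 85 bases before the start in Ifit1 and 59 bases before it in Gbp2. In Oas3 the core begins 75 bases before the start. Neither motif's letters occur in the window of Irf7, nor in that of Oasl1, which was lower in germ-free fat. Stat2, also lower, has a core that begins 222 bases before its start, and Oas2 had no window. These matches describe letters in the reference and not binding in this tissue.

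The reads behind the values were plentiful. Total counts ran from 24388294 to 48348181 per library, and a member had between 20 and 4056 reads in any one library. Levels are given as CPM, a library's counts relative to its total after scaling between libraries. The tissue label was checked with 8 adipocyte markers, all of which were detected, at a summed 9172 to 13596 CPM in conventional libraries, against 8584 to 13595 CPM in the germ-free arm. Ciliated duct markers, from tissue that adjoins this depot, ran from 8.90 to 697 CPM and were highest in germ-free ZT22 replicate 1.

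Some libraries stood apart for these genes. Conventional ZT06 replicate 2 held the highest value of 16 of the 33 genes and was among the 3 highest libraries for 28 of them. Its median deviation from a gene's mean over all libraries was 0.62 (log2) for the type I genes and 0.32 for the gamma-induced genes, while the other replicate at that time stood at 0.07 and -0.06. Conventional ZT02 replicate 2 held the highest value of Igtp, Iigp1, Irgm1, Irf9 and Stat2. It also had the highest sum of lymph node stroma markers, 89.5 CPM against a conventional median of 5.45 CPM, and a B cell marker sum of 931 CPM against 284 CPM. Germ-free ZT02 replicate 2 had a like B cell sum of 965 CPM, and its gamma-induced genes stood at 0.28. Its lymph node stroma sum was 39.0 CPM against a germ-free median of 5.36 CPM. Its macrophage sum, 1491 CPM, and its T and NK cell sum, 24.6 CPM, were the highest of all libraries. Germ-free ZT22 replicate 2, the deepest library, held the highest value of Ifit3, Ifit3b, Mx2, Rsad2 and Rtp4. It also had the highest sum of epididymis and testis markers, 391 CPM against a germ-free median of 24.7 CPM. Conventional ZT10 replicate 2, lowest for Igtp, Iigp1, Irf7 and Rtp4, had an accessory gland marker sum of 1520 CPM against a conventional median of 0.454 CPM. Germ-free ZT22 replicate 1, the library richest in duct markers, was among the 3 lowest libraries for 19 of the 33 genes. Germ-free ZT14 replicate 2 held the lowest value of 7 of the 33 genes and the highest value of Irf7. It also had the highest sum of liver markers, 7418 CPM against a germ-free median of 3634 CPM and a conventional median of 4588 CPM. Values without single libraries, and with duct or macrophage markers as a covariate, stand with the results. The part of lymph node, epididymis or accessory gland tissue, or of liver markers, was not tested.

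**Figure D1:**
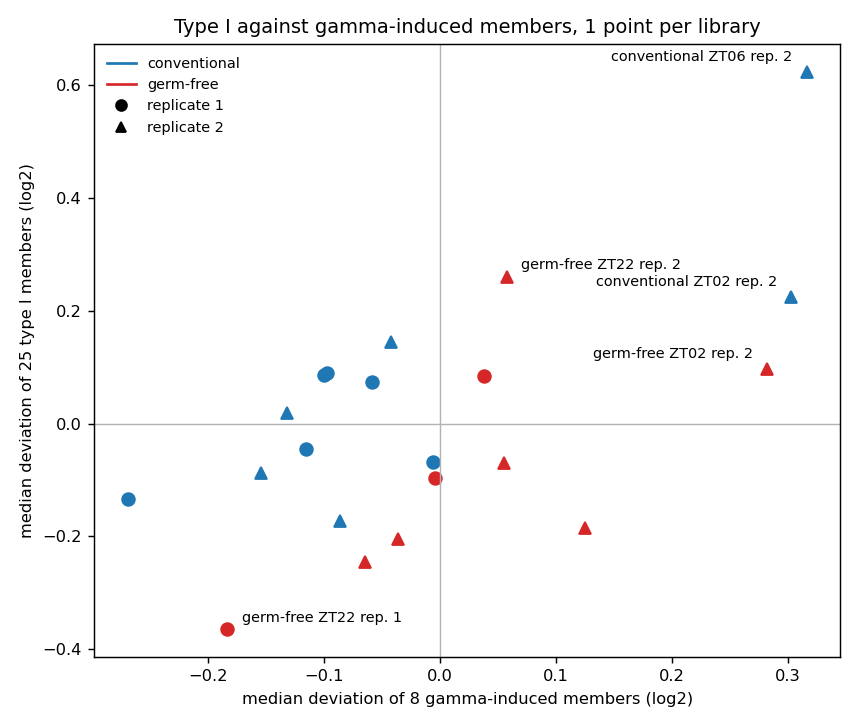
Median log2 deviation of the 25 type I genes (vertical axis) against that of the 8 gamma-induced genes (horizontal axis), with 1 point per library, by arm. Deviations are log2 of CPM plus 0.5, relative to each gene's mean of that value over all 21 libraries. The offset shrinks the deviations of genes at low CPM. Conventional ZT06 replicate 2 is highest for both lists, at 0.62 and 0.32, and germ-free ZT22 replicate 1 is lowest for the type I list, at -0.36.

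The members covered a wide range of levels. Per kilobase of exon, Gbp2, a guanylate-binding protein that coats the vacuoles of intracellular microbes, was highest, at a mean of 30.7 CPM per kb in conventional fat and 31.9 in germ-free fat. Bst2 (tetherin), which holds budding virions at the cell surface, followed at 22.1 and 22.4 CPM per kb. Of the 8 gamma-induced genes, 6 were among the 8 highest members on this scale, and Cxcl10 ranked 28 of 33. Oas3 was lowest, at 0.31 CPM per kb in conventional and 0.17 in germ-free fat. The spread between libraries also varied. For type I genes the highest library exceeded the lowest by a median of 2.51-fold, with a range of 1.35-fold to 6.99-fold, against a median of 1.93-fold and a range of 1.51-fold to 3.80-fold for gamma-induced genes.

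Between the arms, germ-free fat had lower levels of 4 type I genes and a higher level of 1. Oas2, Oas3, Oasl1 and Stat2 fell and Irf7 rose, while 28 members did not pass the threshold, an adjusted p of 0.05 in edgeR's quasi-likelihood test with Benjamini-Hochberg adjustment over all genes tested. The 5 called genes are 15.2% of the members. Over all genes tested, 26.8% were called, 15.2% higher and 11.5% lower in germ-free fat. The members' share was the lower of the 2, and the difference of these shares was not tested. Among type I genes, 5 of 25 were called (20%), with a median log2 fold change, germ-free over conventional, of -0.16 and a negative value for 19 of 25. Among gamma-induced genes, 0 of 8 were called by edgeR, 0 had an unadjusted p under 0.05 and DESeq2 also called 0. Their median was 0.04 and their range -0.03 to 0.11. The median over all genes tested was 0.03. No test between the lists was made, and the list medians are set beside each other as a description. Over the 21 fits that each leave out 1 library, the type I median ran from -0.27 (without germ-free ZT22 replicate 2) to -0.10 (without conventional ZT06 replicate 2). The gamma median ran from -0.01 (without germ-free ZT02 replicate 2) to 0.07 (without conventional ZT06 replicate 2), so 1 library turned its sign. Without conventional ZT06 replicate 2, 4 members were called, Stat2 no longer among them, as were 25.1% of all genes. Without that library, conventional ZT02 replicate 2 and germ-free ZT22 replicate 2, 5 members were called: Irf7, Igtp, Oas2, Oasl1 and Mx2. The share over all genes was then 18.5%.

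**Figure D2:**
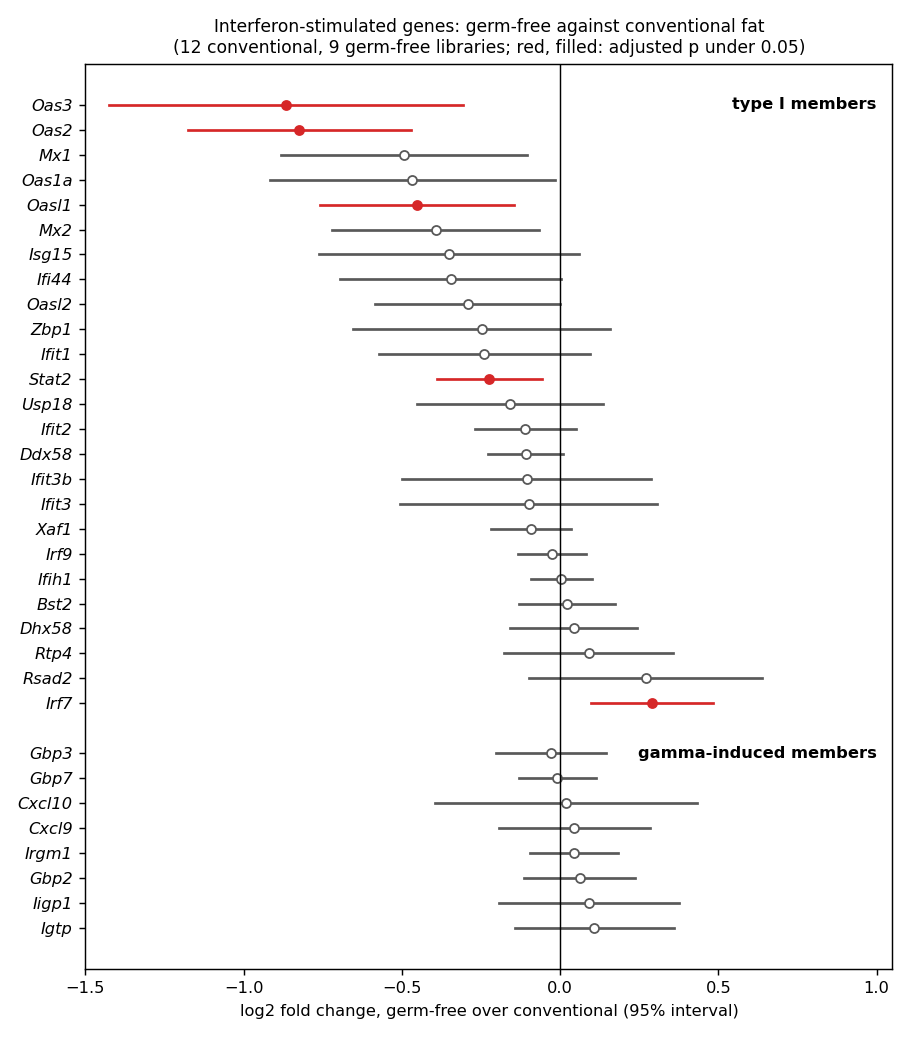
Log2 fold change, germ-free over conventional, of each of the 33 members (horizontal axis) with its 95% interval, which is not adjusted for the number of genes, split into type I and gamma-induced genes. The 5 called genes are marked, and the gamma-induced genes lie between -0.03 and 0.11.

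The oligoadenylate synthetases and their relatives held most of the lower calls. Oas2 makes the second messenger that activates RNase L upon binding double-stranded RNA, and lies at chr5:120730333-120749853 beside Oas3 at chr5:120753098-120777661 (GRCm38, minus strand for both). Oas2 was at 6.11, 7.91 and 13.0 CPM in conventional libraries (lowest, median and highest) and at 2.55, 4.25 and 7.92 CPM in germ-free libraries. In germ-free fat, 8 of 9 libraries were below the lowest conventional library, and the exception was ZT02 replicate 2. Its log2 fold change was -0.82 ± 0.17 (SE, n = 12 and 9 libraries; edgeR adjusted p = 0.00217). Oas2 was called each time when the 21 libraries were left out in turn.

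Oas3, the longest synthetase of the family, ran from 0.841 through a median of 1.32 to 3.86 CPM in conventional and from 0.551 through 0.871 to 1.34 CPM in germ-free libraries. The arms overlapped, with 4 germ-free libraries below the conventional minimum, and the conventional maximum was the ZT06 replicate 2 library. The log2 fold change was -0.87 ± 0.27 (edgeR adjusted p = 0.0233). Without conventional ZT22 replicate 1 or germ-free ZT18 replicate 2 it was no longer called, with adjusted p up to 0.0621, and without the 5 libraries high in duct markers its adjusted p was 0.111. Oasl1, a synthetase-like protein known to restrain translation of Irf7, was at 1.28, 2.10 and 2.66 CPM in conventional libraries, against 1.02, 1.38 and 2.50 CPM in the germ-free arm. The groups overlapped, with 4 germ-free libraries below all conventional ones and ZT22 replicate 2 highest in its arm. The log2 fold change was -0.45 ± 0.15 (edgeR adjusted p = 0.0291), and leaving out conventional ZT10 replicate 1 or any of 3 germ-free libraries (ZT10 replicate 1, ZT10 replicate 2 and ZT18 replicate 2) ended the call, with adjusted p up to 0.0782. Without the 5 libraries high in duct markers its adjusted p was 0.126.

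The other family members, Oas1a and Oasl2, were not called. Oas1a had -0.47 and Oasl2 -0.29 on the log2 scale, with edgeR adjusted p of 0.116 and 0.132. Of the Oas1a exon sequence, 40.9% of 100-base windows also occur in other transcripts, those of Oas1g, so its count may be shared between the pair. Oas2, Oas3, Oasl1, Stat2 and Irf7 share no such window with another gene.

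Stat2, the partner of Irf9 in the type I complex, was at 24.0, 27.4 and 36.1 CPM in conventional libraries, against 18.2, 24.5 and 28.3 CPM in the germ-free arm. Of the germ-free libraries, 8 of 9 were below the conventional median, but only 4 were below the conventional minimum. The log2 fold change was -0.22 ± 0.079 (edgeR adjusted p = 0.0447). This call was lost when any 1 of 11 libraries was left out, with adjusted p up to 0.0766. In the conventional arm these were ZT02, ZT06, ZT14, ZT18 and ZT22 replicate 2 and ZT10 and ZT14 replicate 1, and in the germ-free arm ZT10 replicate 1 and ZT06, ZT14 and ZT18 replicate 2. Irf9 itself, the DNA-binding subunit, had a log2 fold change of -0.03 and was not called.

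Irf7, the factor that drives the interferon alpha genes and amplifies the type I response, went the other way. It was at 13.3, 16.2 and 20.4 CPM in conventional libraries, against 16.0, 19.2 and 32.6 CPM in the germ-free arm. The arms overlapped, 3 germ-free libraries were above every conventional one, and the highest was ZT14 replicate 2. The log2 fold change was 0.29 ± 0.092 (edgeR adjusted p = 0.0262). Without germ-free ZT10 replicate 1, ZT14 replicate 2, ZT18 replicate 2 or ZT22 replicate 2 it was not called, with adjusted p up to 0.117. Exons of Irf7 are overlapped by Phrf1 on the opposite strand over 1.19% of their bases, and those of Oasl1 by Gm13822 over 1.46%. The largest such overlap among the members was that of Cxcl10, 5.91% by Art3. Whether the counting used strand is not given.

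Isg15, the ubiquitin-like protein that is attached to many targets during the response, did not pass. It was at 1.55, 2.05 and 4.63 CPM in conventional libraries, against 1.13, 1.77 and 2.57 CPM in the germ-free arm. The highest conventional value was that of ZT06 replicate 2, and 6 of 9 germ-free libraries were below the conventional median. The log2 fold change was -0.35 ± 0.19 (edgeR adjusted p = 0.200). Mx1 and Mx2, dynamin-like GTPases that trap viral ribonucleoproteins, came nearest the threshold from outside, at -0.49 and -0.39 on the log2 scale, with edgeR adjusted p of 0.0561 and 0.0698. DESeq2 called Mx1, at a log2 fold change of -0.50 (adjusted p = 0.0346). The Mx1 allele of C57BL/6 mice is known to be defective, and the gene annotation lists Mx2 as a polymorphic pseudogene.

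The remaining type I genes were not called. Ifi44 stood at a log2 fold change of -0.35 (edgeR adjusted p = 0.134). The tetratricopeptide proteins, which bind viral RNA ends, had values of -0.24 (Ifit1), -0.11 (Ifit2), -0.10 (Ifit3) and -0.11 (Ifit3b). Ifit3 and Ifit3b share 31.7% and 27.4% of their 100-base windows, so their counts may be split between them. The cytosolic RNA helicases were at 0.00 (Ifih1, MDA5), -0.11 (Ddx58, RIG-I) and 0.04 (Dhx58, LGP2). Usp18, the protease that removes Isg15 and restrains the receptor, was at -0.16, Xaf1 at -0.09, Zbp1, a sensor of left-handed nucleic acid, at -0.25, Bst2 at 0.02, and Rtp4 at 0.09. Rsad2 (viperin), which makes a chain-terminating nucleotide, was at 0.27 with an SE of 0.17, and its highest library was germ-free ZT22 replicate 2 at 47.4 CPM.

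No gamma-induced gene was called between the arms. The 95% intervals of the fold between arms ran from 0.760 to 1.35 over all 8 genes and from 0.870 to 1.30 without Cxcl10. Cxcl9, a chemokine for T cells, was at 19.4, 25.2 and 33.4 CPM in conventional libraries, against 15.8, 26.7 and 36.2 CPM in the germ-free arm. The germ-free arm held both the lowest and the highest library, and the log2 fold change was 0.04 ± 0.11 (edgeR adjusted p = 0.828). Cxcl10, a chemokine for the same receptor, was at 0.918, 1.17 and 2.90 CPM in conventional libraries, against 0.762, 1.45 and 2.75 CPM in the germ-free arm. Its arms overlapped over nearly their whole range, at a log2 fold change of 0.02 ± 0.20 (edgeR adjusted p = 0.961). Gbp2, Gbp3 and Gbp7, guanylate-binding proteins, had log2 fold changes of 0.06, -0.03 and -0.01. The immunity-related GTPases, which act on pathogen vacuoles, had 0.11 (Igtp), 0.04 (Irgm1) and 0.09 (Iigp1). Igtp was at 28.2 and 28.0 CPM in conventional ZT02 replicate 2 and ZT06 replicate 2, and the other 10 conventional libraries ran from 14.2 to 18.1 CPM. For no member, of either list, were the libraries of the arms separate, against 0.665% of all genes tested (0.371% with germ-free lower and 0.295% with germ-free higher).

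**Figure D3:**
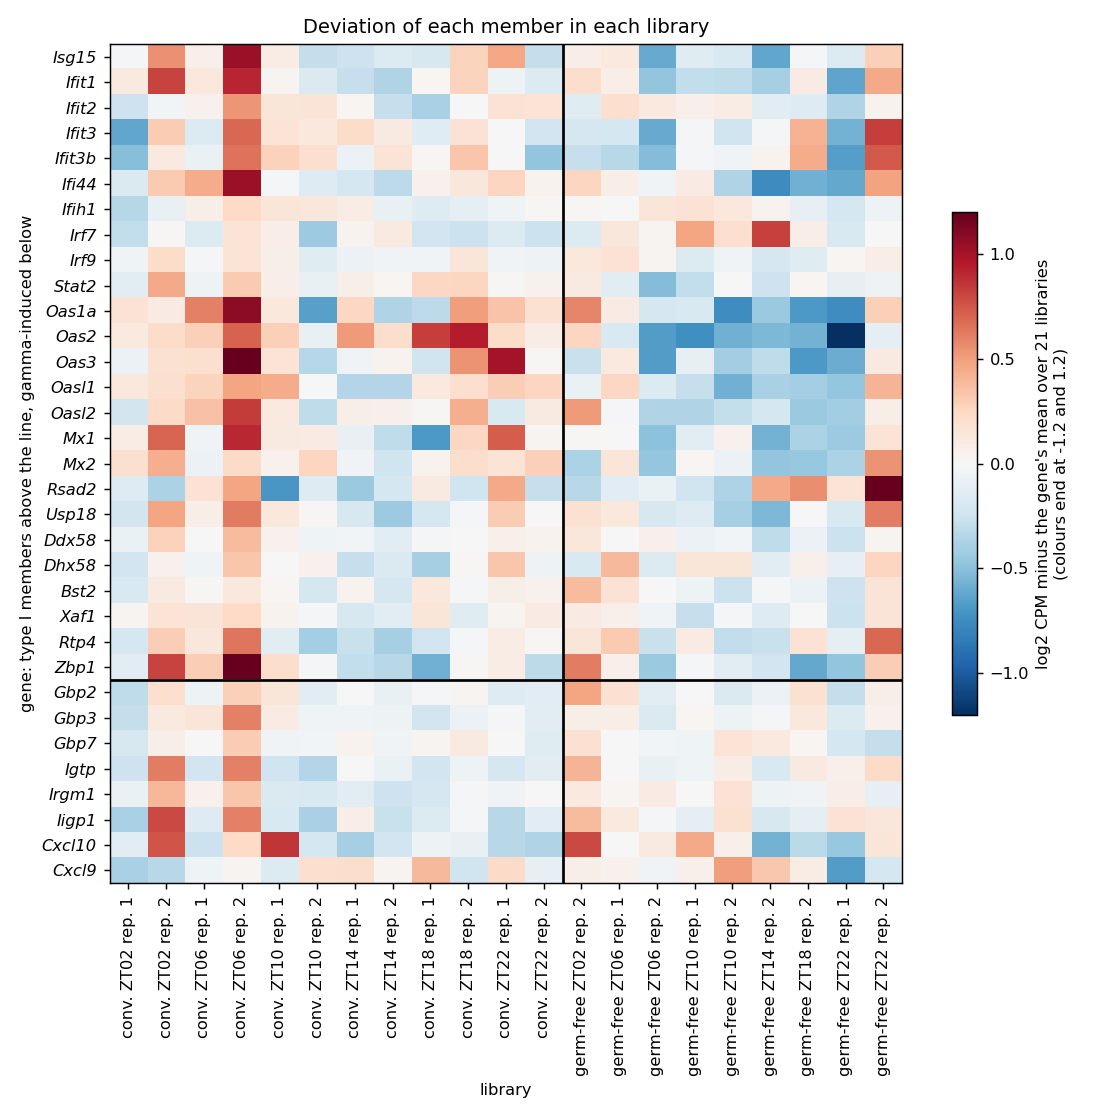
Log2 deviation of each of the 33 members from its mean over all 21 libraries, as a colour, with members in rows and libraries in columns by arm and time. An offset of 0.5 was added to CPM before the log2. The column of conventional ZT06 replicate 2 is high for most type I genes, and germ-free ZT22 replicate 1 is low for many of them.

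Over the day, 1 member passed the rhythm test in 1 arm. A cosine of period 24 h was fitted in each arm, and its amplitude is the log2 distance from the mean to the peak. In conventional fat edgeR called 0 of 33 members (0.796% of all genes tested), and 6 members had an unadjusted p under 0.05, as did 13.9% of all genes tested. DESeq2 called 2, Irgm1 and Zbp1, and its share over all genes was not counted. These were also the members with the smallest p in edgeR, at unadjusted 0.00490 and 0.00587 and adjusted 0.149 and 0.160. Irgm1 was at 25.3 and 35.5 CPM at ZT02, 27.7 and 33.7 at ZT06, and from 22.5 to 26.8 CPM at the later times. Its fitted peak was at 2.80 h, and the highest values were those of conventional ZT02 replicate 2 and ZT06 replicate 2. Zbp1 reached 8.28 and 11.1 CPM in the same 2 libraries, 4.07 and 5.66 CPM in their partners at those times and no more than 5.29 CPM later.

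In germ-free fat 1 of 33 members was called rhythmic by edgeR, against 4.52% of all genes tested, and 6 had an unadjusted p under 0.05, as did 22.4% of all genes tested. That member was Irf7, with an amplitude of 0.41 and a peak at 13.1 h (adjusted p = 0.0346). Its germ-free values were 16.2 CPM at ZT02, 20.1 and 18.6 at ZT06, 25.5 and 21 at ZT10, 32.6 at ZT14, 19.2 at ZT18 and 16.0 and 18.3 CPM at ZT22. The high point at ZT14 is 1 library. Without germ-free ZT02 replicate 2, ZT10 replicate 1, ZT14 replicate 2 or ZT22 replicate 1 the rhythm was not called. In conventional fat the Irf7 amplitude was 0.10. The difference between the arms' rhythms had an unadjusted p of 0.0304 for Irf7 and an adjusted p of 0.631 in edgeR, and no member and no gene of the table was called for a difference. At an unadjusted p under 0.05 the difference held for 1 of 33 members and 7.59% of all genes tested. The next smallest was Rsad2 at 0.0523 (adjusted p = 0.654). The member values of germ-free fat over the day rest on 1 library at 3 of the 6 times.

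**Figure D4:**
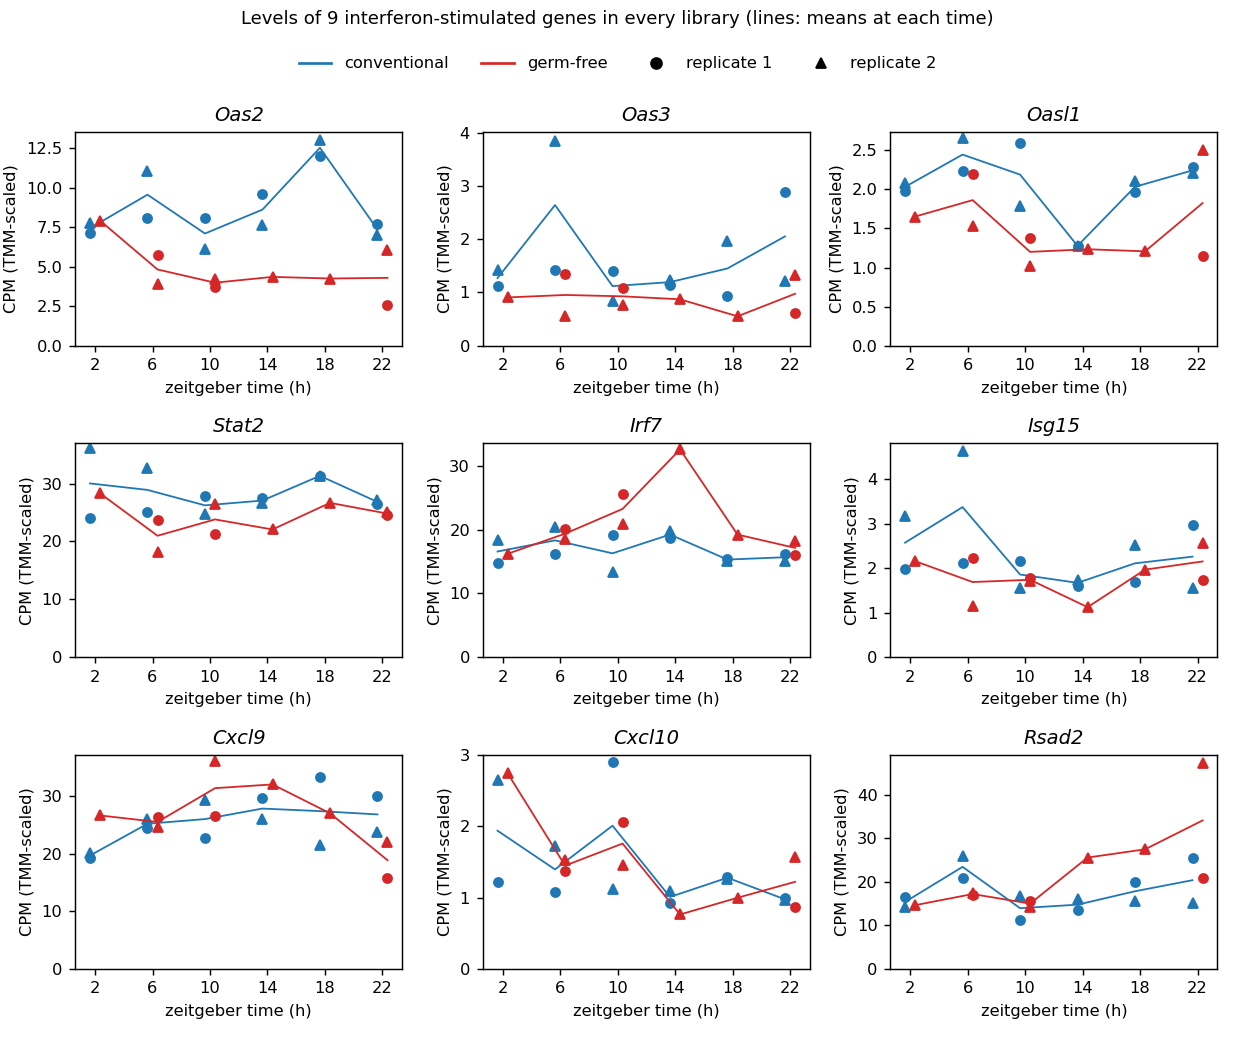
CPM of selected members by zeitgeber time in h, with 1 point for each library and a line through the means at each time, for both arms. Oas2 is lower in germ-free fat at each time except where ZT02 replicate 2 reaches 7.92 CPM, and Irf7 reaches 32.6 CPM in the single germ-free library at ZT14.

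The ligands were near or under the limit of detection. None of 21 interferon genes listed passed the filter on low counts. Ifnb1, interferon beta, had 0 reads in all 21 libraries, which allows up to 0.0664 to 0.134 CPM depending on the library. Ifng had 84 reads in all, from 0 to 14 per library, with 14 in germ-free ZT02 replicate 2, 11 in germ-free ZT22 replicate 2 and 8 in conventional ZT02 replicate 2. In these 3 libraries the T and NK cell marker sums were 24.6, 19.0 and 19.7 CPM, against medians of 13.0 CPM in germ-free and 10.5 CPM in conventional libraries.

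No receptor chain was called. Ifnar1 and Ifnar2, the type I receptor chains, were at log2 fold changes of 0.07 and -0.03 (edgeR adjusted p of 0.0709 and 0.802), and Ifngr1 and Ifngr2, the gamma receptor chains, were at -0.03 and -0.05 (edgeR adjusted p of 0.834 and 0.734). Of 9 receptors and kinases, 0 rose and 1 fell, Jak1, a kinase that both receptors use, by 0.16 on the log2 scale (adjusted p = 0.0150). Of 10 transcription factors, 0 rose and 2 fell. The called shares were 11.1% of receptors and kinases and 20% of transcription factors, both below the 26.8% of all genes tested. Irf2, an antagonist of Irf1 at ISRE sites, was at 18.9, 22.1 and 29.2 CPM in conventional libraries, against 8.34, 14.2 and 26.8 CPM in the germ-free arm (log2 fold change -0.63, edgeR adjusted p = 0.00239). Ciita, the gamma-induced activator of MHC class II genes, was at a log2 fold change of -0.42 (edgeR adjusted p = 0.0145). Irf1, a factor induced by gamma, was at 0.16 (edgeR adjusted p = 0.113) and was not called.

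Nucleic acid sensing is the step before interferon is made. Of 17 such genes tested, 1 rose and 5 fell (35.3% called, against 26.8% of all genes tested), and the difference of these shares was not tested. Ikbke, a kinase that phosphorylates Irf3 and Irf7, was at 12.9, 15.4 and 18.8 CPM in conventional libraries, against 9.77, 11.2 and 13.5 CPM in the germ-free arm, at a log2 fold change of -0.49 (edgeR adjusted p = 2.11e-04). Ticam1 (TRIF), the adaptor of Tlr3 and Tlr4, fell by 0.38, Ifi204, a DNA sensor, by 0.25, and Tlr9, the receptor for CpG DNA, by 0.63 on the log2 scale. The 1 that rose, Tbk1, the close relative of Ikbke, was named after its values were seen (log2 fold change 0.11, edgeR adjusted p = 0.0488). Of 12 negative regulators, 1 rose and 3 fell (33.3% called). Ptpn2, a phosphatase of the Jak kinases, rose by 0.18, and Samhd1, Pias1 and Adar fell by 0.38, 0.21 and 0.16 on the log2 scale. Samhd1, which degrades nucleotides, had the smallest p of these (log2 fold change -0.38, edgeR adjusted p = 3.65e-04).

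Further targets were counted in the same way. Of 34 further type I targets, 2 rose and 10 fell (35.3% called, against 26.8% of all genes tested), and the median log2 fold change was -0.10. Ifi27, a small mitochondrial and nuclear-envelope protein, ran from 173 to 221 CPM in conventional libraries, against 234 to 366 CPM in the germ-free arm, with no overlap (log2 fold change 0.60, edgeR adjusted p = 2.11e-04). Ifi27l2a, its close relative, went the other way, from a median of 816 to 499 CPM (log2 fold change -0.77, edgeR adjusted p = 0.00489). Trim34a and Rnf213, a giant ubiquitin ligase, fell by 0.32 and 0.30 on the log2 scale. Of 30 further gamma targets, 5 rose and 2 fell (23.3% called), with a median of 0.10 and a positive value for 25. The 4 with the smallest p were Psme1 and Psme2, the proteasome activator subunits (both 0.23), Psmb8, an immunoproteasome subunit (0.27), and Tapbp, the tapasin of the peptide-loading complex (-0.30). For the members' own lists the medians were -0.16 and 0.04.

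Cell type marker sums were set beside these values, with an exact permutation test over 5832 relabellings of the libraries within time, two-sided and adjusted over 15 lists. None of the 15 sums passed. Macrophage markers (9 of 9 detected) ran from 954 to 1379 CPM, median 1173, in conventional and from 879 to 1491 CPM, median 961, in germ-free libraries, a log2 difference of -0.18 (exact permutation p = 0.0682, adjusted p = 0.204). With that sum as a covariate, Oas2 was the member still called, at a log2 fold change of -0.70 (edgeR adjusted p = 0.0105). The other 4 were not, the type I median was -0.08, and 19.4% of all genes were called. Plasmacytoid dendritic cell markers, from the cell best known for type I interferon, ran from 149 to 204 CPM in conventional libraries, against 164 to 224 CPM in the germ-free arm, mostly from Tcf4, which other cells also express. Siglech, the defining marker of that cell, had a median of 2.37 CPM in conventional libraries, against 3.60 CPM in the germ-free arm. The markers of this list did not move together. Of the 6 tested between the arms, 1 was called higher and 1 lower (33.3% called, against 26.8% of all genes tested). Their log2 fold changes ran from -0.73 to 0.48. B cell sums had medians of 284 and 190 CPM (exact permutation p = 0.0328), endothelial sums 679 and 809 CPM (exact permutation p = 0.0374), and T and NK cell sums 10.5 and 13.0 CPM (exact permutation p = 0.0482), each with an adjusted p of 0.204. With the sum of ciliated duct markers as a covariate the same 5 members were called, as were 27.8% of all genes.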

How the data were processed

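RNA from 21 libraries (12 conventional, 9 germ-free) was analysed from 1 table of raw read counts over exons, which the authors deposited. Per the labels' protocols the libraries were stranded, total RNA depleted of ribosomal RNA, and read as pairs of 100 bases. Per the submitters' processing notes, STAR 2.4.0i and build mm10 were used. How reads were counted, with strand and multi-mapping settings or annotation release, is not given in the sources used here.

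Counts were scaled by TMM and filtered with filterByExpr (18334 of 38087 genes kept) in edgeR 4.0.16 under R 4.3.3. Arms were compared by the quasi-likelihood test with a robust fit and time as a factor of 6 levels, and rhythms by a 24 h cosine in each arm, with Benjamini-Hochberg adjusted p under 0.05 over all genes. DESeq2 1.42.0 was an alternative, beside other scaling, filters, designs and left-out libraries. The scripts were tested on simulated data. Gene positions came from GENCODE M21 (GRCm38) and promoters from RefSeq.

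The members and gene lists were chosen with earlier results of these data known. All 33 members are reported. Ranges are given for members past the threshold and for Isg15, Irf7, Stat2, Cxcl9 and Cxcl10. Of the other pathway lists, fixed ligands, receptors and factors and up to 4 called genes with the smallest p are named; 1 item is not reported here. Zero counts allow 3 reads, for counting error only. No 2 libraries were alike within sampling noise.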

Additional observations from a re-analysis of the deposited data

Results flagged for a closer look

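In germ-free fat, Oasl2 was at 22.5 CPM in ZT02 replicate 2, apart from the next highest of the 9 libraries at 16.5 CPM. Rsad2 was at 47.4 CPM in germ-free ZT22 replicate 2, with the next at 27.5 CPM. In each case the gap was a larger share of the arm's range than Dixon's 95% critical value for 9 samples, 0.493. These were 2 of 35 values tested, and chance flags about 1 in 20 groups.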

How the results depend on the processing

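Under the 13 alternatives that leave out no single library, 386 of 429 values of single members were counted as keeping direction and side of the threshold. For uncalled members, a sign that turned by no more than the main fit's SE was counted as kept. The count of members called between arms, 5 (all type I), was 3 without a filter on low counts, without the time factor, or without the 5 libraries high in duct markers, 1 at ZT06, ZT10 and ZT22 alone (2 libraries per arm) or with macrophage markers as a covariate, and 0 in edgeR among libraries numbered 1 or numbered 2 (3 and 6 at an unadjusted p under 0.05). Over all genes 26.8% were called in the main fit. That share was 9.27% at ZT06, ZT10 and ZT22 alone, 5.27% among libraries numbered 2 and 0% among those numbered 1. It was 12% without the filter, 24.1% without the time factor and 19.4% with the macrophage covariate, but 28.6% without the libraries high in duct markers. DESeq2 called 6 members, adding Mx1 (29.2% of all genes), and exon length offsets 4, without Stat2 (21.7% of all genes). Leaving out each library in turn gave 1 to 7 members called, for type I members also 1 to 7. The highest count, 7, came without conventional ZT02 replicate 1 (27% of all genes called) or germ-free ZT02 replicate 2 (28.4%). The count was 1 without germ-free ZT18 replicate 2 (18% of all genes called) and 2 without germ-free ZT10 replicate 1 (19.9%). It was 3 without conventional ZT10 replicate 1 (23.3%) or germ-free ZT14 replicate 2 (20%). Gamma-induced members had 0 calls throughout, except 1 (Igtp, higher) without the 3 libraries with most maxima, an alternative chosen after seeing the data. The count of members rhythmic in germ-free fat was 0 to 1 without each library. DESeq2 gave 2 members rhythmic in germ-free and 2 in conventional fat, and its rhythm calls over all genes were not counted.

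Signs reversed only for uncalled members, and those that moved by more than the SE of the main fit follow. Smaller turns of sign are not listed. At ZT06, ZT10 and ZT22 alone the log2 fold changes were -0.0787 for Ifih1, -0.0627 for Bst2, -0.0648 for Gbp2 and -0.0860 for Cxcl9. Among libraries numbered 1 they were -0.0832 for Ifih1, -0.0630 for Rsad2, -0.0955 for Bst2, -0.0279 for Gbp2 and -0.20 for Cxcl9, and among those numbered 2, -0.0230 for Irgm1. With exon length offsets, also chosen after seeing the data, they were 0.0303 for Irf9 and 0.0517 for Gbp7. The causes were not tested beyond fewer libraries or genes.

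With a replicate block, 6 members were called, Mx1 joining the 5, as were 25% of all genes. Libraries of the same number correlated in their deviations at r = 0.56 (ZT06), 0.22 (ZT10) and -0.18 (ZT22), so the number is not treated as a pairing.

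Few reads limit Ifng, and 1 germ-free library at 3 times limits the germ-free rhythm.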
